A study of Homo sapiens with 12 samples.

Results

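The estradiol response was compared between EA.hy926 cells with and without a transfected estrogen receptor. EA.hy926 is a human endothelial line, a hybrid of umbilical vein endothelium and a lung carcinoma. The response difference was taken, gene by gene, as the change with estradiol in receptor cells minus that in cells given an empty vector. All 12 arrays of the study, of 12 in all, entered this difference. They fell into 4 groups of 3: receptor cells with 17-beta-estradiol, receptor cells with vehicle, control cells with estradiol, and control cells with vehicle. Receptor cells carried the plasmid pCMV3-ERalpha, which encodes human estrogen receptor alpha, and control cells carried the backbone pCDNA 3.1. All were stable transfectants selected and kept in puromycin, grown from picked single colonies of a line that, per the labels, lacks the receptor. Estradiol was given at 10 nM and the vehicle was ethanol, each for 16 h in serum-free medium. Neither the promoter's activity nor the amount of receptor per cell was measured on the arrays, and the labels do not tie a replicate number to a colony. Receptor arrays were paired by replicate number in the main fit, so level differences between receptor replicates do not enter its p-values. These p-values measure the spread of the estradiol change between receptor pairs and the spread between control arrays of a group. As no number is tied to a colony, the samples may be cultures of the same cells. For the same reason, effects of the receptor and of the picked colony cannot be told apart here.

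Estrogen receptor alpha is a nuclear receptor that acts as a transcription factor when it binds estradiol. It reaches DNA directly, at estrogen response elements built of a pair of inverted GGTCA arms, or through partners such as AP-1 and Sp1. Blood vessels are a classical estrogen target, and in endothelium the receptor is known for its effects on nitric oxide, prostanoids, coagulation and repair.

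Between 18441 and 19747 probes per array were detected, and the median raw intensity lay between 105 and 121. The single probe for ESR1, the gene of the receptor, was detected on 0 of 12 arrays. Its normalized log2 level was 4.50 ± 0.12 in receptor cells and 4.54 ± 0.10 in control cells (SD, n = 6 each), so the arrays did not show the transfected transcript. Whether this probe lies within the transcript made from the vector was not checked, and the cells are called receptor cells by their label. Per the labels, the receptor protein was seen on western blots. Of 12 endothelial marker genes with a probe, 8 were detected on all 12 arrays, and CLDN5 and FLT1 on none. Their summed linear level was 15829 to 21411 and 16304 to 21512 in receptor cells with estradiol and with vehicle, against 21086 to 23032 and 22458 to 25119 in control cells with estradiol and with vehicle. The 7 epithelial markers summed to 3084 to 5665 and 3062 to 5404 in receptor cells with estradiol and with vehicle, against 2859 to 3135 and 2719 to 2912 in control cells with estradiol and with vehicle, with CDH1 undetected. The 8 mesenchymal markers summed to 2875 to 3871 over all arrays, with CNN1, MYH11, PDGFRA and PDGFRB undetected. The leukocyte markers CD3E and PTPRC were undetected. The endothelial and epithelial sums did not overlap between the cell lines with vehicle, but did overlap with estradiol. Within each cell line the ranges of the treatments overlapped. The part of the marker sums in the results was not tested.

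The response differed between receptor and control cells for 12 genes of 15249 tested, and in all 12 it was the higher in receptor cells (0.0787% of the genes tested, adjusted p under 0.05 in limma). They were OLFML3, RASGRF1, SMOX, THBD, VASN, KRT15, INPP4B, B4GALT1, PC, HAVCR2, PTGS2 and CUEDC1. The difference was largest for OLFML3, at 2.48 ± 0.19 log2 (SE), and smallest for CUEDC1, at 0.73 ± 0.11 log2. No gene was called in the lower direction, where 502 genes had an unadjusted p under 0.05 (3.29% of those tested), against 588 in the higher direction (3.86%). The count depended on the model. It was 5 without the pairing of receptor arrays by replicate number and 56 to 64 under 4 other settings of background handling or prior variance, all of which called the 12 genes too. In bulk RNA, a change in the number of cells that express a gene and a change in RNA per cell cannot be told apart.

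For 11 of the 12 genes the estradiol response was also called within receptor cells. The response difference and the receptor response share the 6 receptor arrays, so the call in receptor cells is no independent evidence. None of the 12 was called in control cells, where 0 of 15249 genes were called, 399 genes were higher and 484 lower at an unadjusted p under 0.05 (2.62% and 3.17%). The 95% interval of the control response held 0 for 11 of the 12 genes and lay within 0.5 log2 of 0 for the same 11, all but PC. In receptor cells each of the 12 was higher with estradiol in 3 of 3 pairs of equal replicate number. For 8 of them the 3 estradiol-treated receptor arrays lay above all the other 9 arrays, a pattern that 143 genes showed in all (0.938% of those tested). The exceptions were THBD, KRT15, PC and PTGS2.

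**Figure D1:**
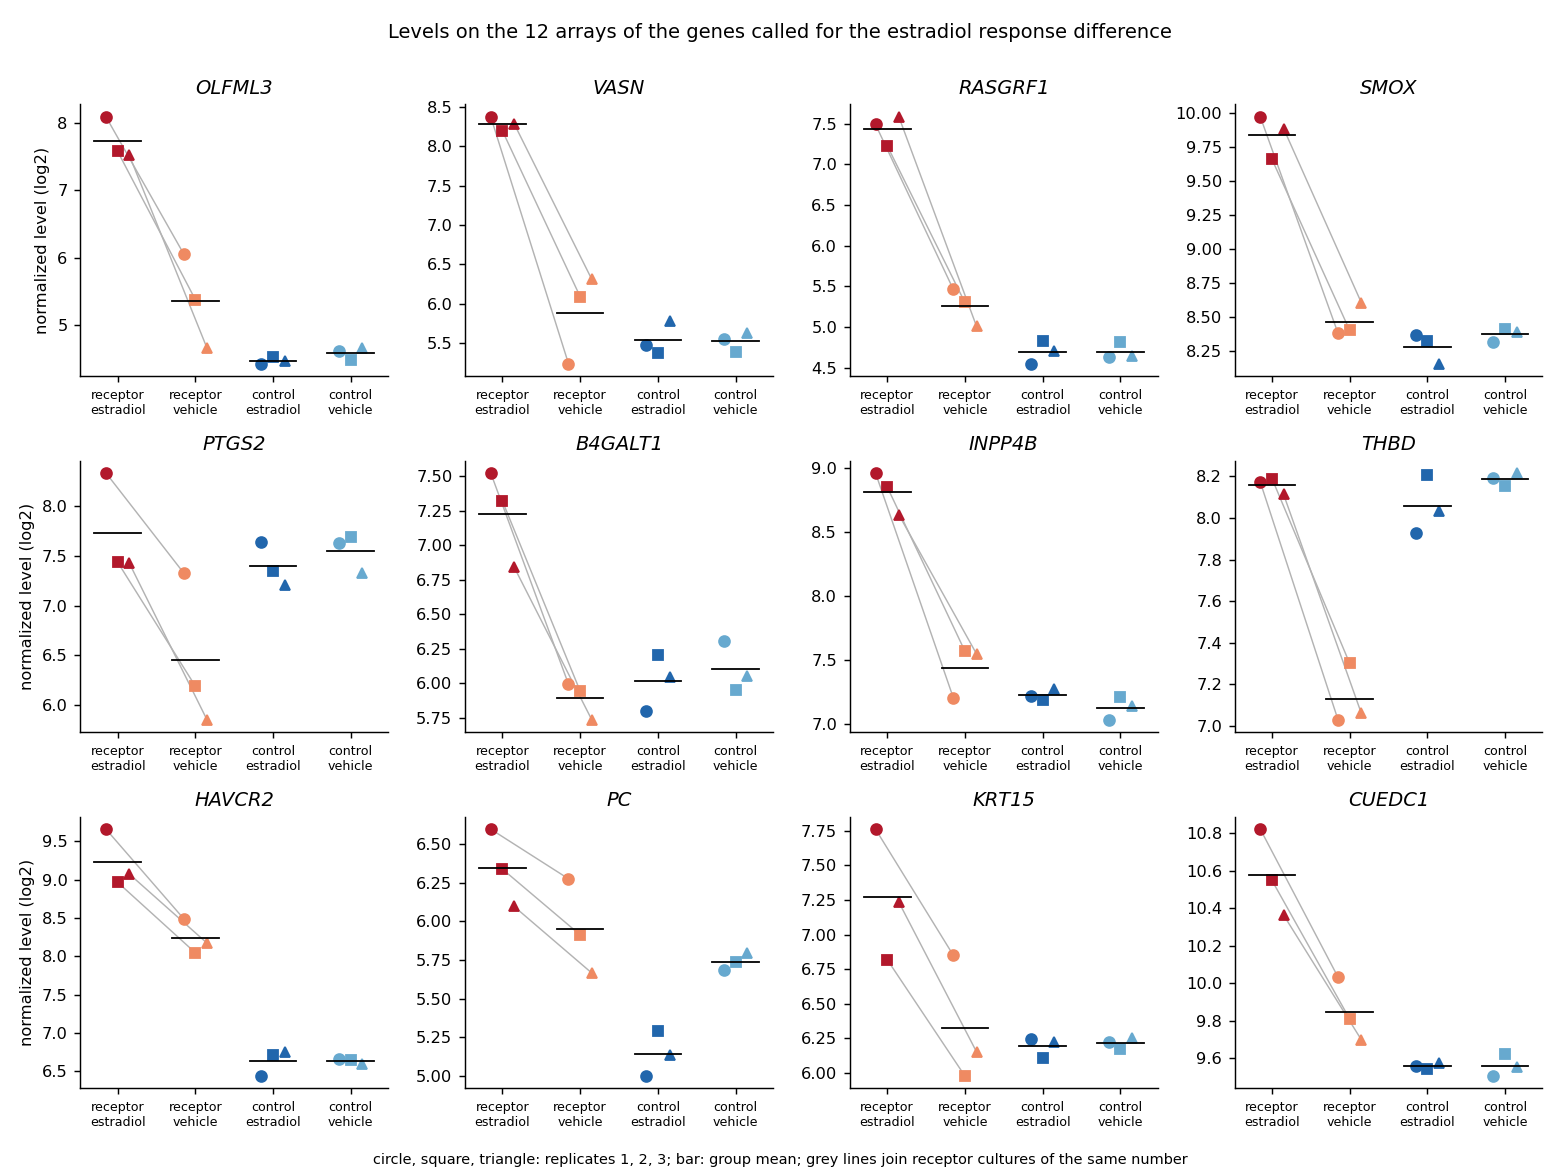
Normalized log2 level (vertical axes, each panel with its own range) of the 12 genes called for the response difference on each of the 12 arrays. Groups run from left to right as receptor cells with estradiol, receptor cells with vehicle, control cells with estradiol and control cells with vehicle. Each point is an array and each bar a group mean. Estradiol-treated receptor points lie above all others for 8 genes, while THBD, PTGS2 and B4GALT1 are on average lowest in vehicle-treated receptor cells.

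Promoter windows were looked up to show which letters stand upstream of the called genes. The windows are those of RefSeq on GRCh38.p14, and run from 250 bases before to 50 bases after a gene's start. They were found for 6 of the 12 called genes: OLFML3, VASN, INPP4B, B4GALT1, PC and PTGS2. Those with a match that illustrate the secreted, surface, glycan and prostanoid genes are printed up to the start, 5′ to 3′ on the gene's strand, with capitals for each motif match. They lie at chr1:113979224-113979473 (OLFML3, plus strand), chr16:4371598-4371847 (VASN, plus strand), chr9:33167337-33167586 (B4GALT1, minus strand) and chr1:186680424-186680673 (PTGS2, minus strand).
OLFML3: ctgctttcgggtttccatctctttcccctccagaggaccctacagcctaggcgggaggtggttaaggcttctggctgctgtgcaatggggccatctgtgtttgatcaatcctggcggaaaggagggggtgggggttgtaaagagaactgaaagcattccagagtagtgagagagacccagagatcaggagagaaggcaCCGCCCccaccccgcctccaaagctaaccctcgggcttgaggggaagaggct
VASN: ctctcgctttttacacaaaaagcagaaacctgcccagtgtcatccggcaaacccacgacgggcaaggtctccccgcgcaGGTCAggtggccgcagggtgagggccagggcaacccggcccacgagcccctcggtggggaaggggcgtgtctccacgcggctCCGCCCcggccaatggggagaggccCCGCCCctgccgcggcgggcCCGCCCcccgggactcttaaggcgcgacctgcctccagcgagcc
B4GALT1: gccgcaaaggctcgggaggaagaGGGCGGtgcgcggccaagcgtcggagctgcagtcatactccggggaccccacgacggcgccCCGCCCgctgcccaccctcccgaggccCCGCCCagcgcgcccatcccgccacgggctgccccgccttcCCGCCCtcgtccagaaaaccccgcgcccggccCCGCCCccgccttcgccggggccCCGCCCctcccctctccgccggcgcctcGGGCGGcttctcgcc
PTGS2: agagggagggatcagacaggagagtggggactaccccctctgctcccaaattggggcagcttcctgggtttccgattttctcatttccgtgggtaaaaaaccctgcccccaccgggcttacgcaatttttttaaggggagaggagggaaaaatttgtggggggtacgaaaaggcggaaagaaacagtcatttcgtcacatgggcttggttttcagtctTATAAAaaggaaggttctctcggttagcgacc
Motifs were searched on both strands, and their matches may overlap. The full estrogen response element GGTCANNNTGACC was in 0 of the 6 windows, and in 0 of 6 with 1 mismatch allowed. It was in 0.0659% and 0.864% of all 27305 promoters, and in 0.0208% and 0.478% of those of the genes tested. A single arm, GGTCA, was in 1 of 6, at 171 bases before the start of VASN. It was in 37.7% of all promoters and in 34.7% of those of the genes tested. The AP-1 motif TGANTCA was in 0 of 6, in 7.76% of all and in 4.67% of those of the genes tested. GGGCGG, the core of the Sp1 motif, was in 4 of 6 (OLFML3, VASN, B4GALT1 and PC), in 44.6% of all promoters and in 68.8% of those of the genes tested. TATAAA was in PTGS2 only, at 32 bases before its start, in 12% of all promoters and in 6.05% of those of the genes tested. A match is a string of letters and not a measured binding site, and these windows do not reach distal elements.

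OLFML3, VASN and HAVCR2 encode secreted or surface proteins, and OLFML3 and VASN had the 2 highest differences by size. OLFML3 encodes a secreted glycoprotein of the olfactomedin family. Its log2 level was 8.10, 7.58 and 7.52 in receptor cells with estradiol and 6.06, 5.37 and 4.65 in receptor cells with vehicle, against 4.42, 4.53 and 4.45 in control cells with estradiol and 4.61, 4.47 and 4.66 in control cells with vehicle. Receptor cells with estradiol stood above every other array, and the gene was not detected on any control array or on replicate 3 of receptor cells with vehicle. With estradiol it was at least 7.28-fold higher in receptor cells than in control cells, a bound set by the level at which detection starts. The estradiol fold was 5.59 times as large in receptor cells as in control cells (adjusted p = 9.18e-04, limma), a fitted value that rests on control levels not above background. The rise was 2.04 and 2.21 log2 in pairs 1 and 2, where both arrays detected the gene.

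VASN encodes vasorin, a membrane protein that binds TGF-beta. It was at 8.38, 8.20 and 8.29 log2 in receptor cells with estradiol and 5.24, 6.09 and 6.31 with vehicle, against 5.48, 5.37 and 5.78 in control cells with estradiol and 5.55, 5.38 and 5.62 with vehicle. The 3 estradiol-treated receptor arrays lay close together and more than 1 log2 above all others, while vehicle-treated receptor arrays overlapped control arrays. The difference was 2.39 ± 0.27 log2 (adjusted p = 0.00903, limma). Most of the spread within receptor cells came from the vehicle arrays, and the pairs rose by 3.14, 2.11 and 1.98 log2.

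HAVCR2 encodes TIM-3, an immune checkpoint receptor studied mainly on lymphocytes and myeloid cells. It stood at 9.66, 8.97 and 9.07 log2 in receptor cells with estradiol and 8.49, 8.05 and 8.17 with vehicle, against 6.44, 6.72 and 6.75 in control cells with estradiol and 6.66, 6.65 and 6.60 with vehicle. All 6 receptor arrays lay above all 6 control arrays, and estradiol added to that distance. The pan-leukocyte marker PTPRC was detected on 0 arrays. Receptor cells exceeded control cells by 2.60 log2 with estradiol and by 1.60 log2 with vehicle, a response difference of 1.00 ± 0.14 log2 (adjusted p = 0.0331, limma).

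The vascular genes THBD and PTGS2 had another layout of levels. THBD encodes thrombomodulin, the endothelial surface protein that turns thrombin towards activation of the anticoagulant protein C. It was at 8.17, 8.19 and 8.11 log2 in receptor cells with estradiol and 7.03, 7.30 and 7.06 in receptor cells with vehicle, against 7.93, 8.21 and 8.03 in control cells with estradiol and 8.19, 8.15 and 8.22 in control cells with vehicle. Only vehicle-treated receptor arrays were low, and the other 3 groups overlapped. THBD in receptor cells was 1.06 log2 below control cells with vehicle and 0.10 log2 above them with estradiol. The response difference was 1.16 ± 0.13 log2 (adjusted p = 0.00903, limma).

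PTGS2 encodes cyclooxygenase-2, the inducible enzyme of prostaglandin synthesis. Its level was 8.33, 7.44 and 7.43 log2 in receptor cells with estradiol and 7.33, 6.19 and 5.85 with vehicle, against 7.64, 7.35 and 7.21 in control cells with estradiol and 7.63, 7.69 and 7.32 with vehicle. Replicate 1 of the receptor cells was the highest under both treatments, and its vehicle array overlapped the control arrays. The rise within pairs was 1.00, 1.25 and 1.57 log2. Receptor cells with estradiol averaged 0.34 log2 above control cells with estradiol, and receptor cells with vehicle 1.09 log2 below control cells with vehicle. The difference in response was 1.43 ± 0.20 log2 by the brighter probe (adjusted p = 0.0331, limma) and 0.42 log2 by the other detected probe of the gene. PTGS1, the constitutive cyclooxygenase, had a difference of -0.54 log2, was detected on 9 of 12 arrays and was not called.

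RASGRF1, INPP4B and CUEDC1 act inside the cell. RASGRF1 encodes a guanine nucleotide exchange factor that activates Ras. It was at 7.49, 7.23 and 7.59 log2 in receptor cells with estradiol and 5.47, 5.30 and 5.01 with vehicle, against 4.55, 4.82 and 4.70 in control cells with estradiol and 4.63, 4.82 and 4.64 with vehicle. It was detected on all 6 receptor arrays and on none of the 6 control arrays, and estradiol-treated arrays stood clear of the rest. With estradiol it was at least 5.92-fold higher in receptor cells than in control cells. The response difference was 2.18 ± 0.18 log2 (adjusted p = 9.18e-04, limma), with control levels not above background.

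INPP4B encodes a phosphatase that removes a phosphate from phosphoinositides and restrains the PI3-kinase pathway. It was at 8.96, 8.85 and 8.64 log2 in receptor cells with estradiol and 7.21, 7.57 and 7.55 with vehicle, against 7.22, 7.19 and 7.28 in control cells with estradiol and 7.04, 7.21 and 7.14 with vehicle. Estradiol-treated receptor arrays lay more than 1 log2 above all others. The difference was 1.27 ± 0.16 log2 (adjusted p = 0.0174, limma). CUEDC1, which encodes a protein with a ubiquitin-binding CUE domain, was bright in every group. It was at 10.82, 10.55 and 10.36 log2 in receptor cells with estradiol and 10.03, 9.81 and 9.70 with vehicle, against 9.56, 9.54 and 9.57 in control cells with estradiol and 9.50, 9.62 and 9.55 with vehicle. Its control arrays were nearly level, its pairs rose by 0.79, 0.74 and 0.67 log2, and its adjusted p of 0.0383 in limma was the highest of the 12.

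The metabolic enzymes SMOX, B4GALT1 and PC were called. SMOX encodes spermine oxidase, which breaks spermine down to spermidine with release of hydrogen peroxide. It was at 9.97, 9.66 and 9.88 log2 in receptor cells with estradiol and 8.38, 8.40 and 8.61 with vehicle, against 8.37, 8.33 and 8.16 in control cells with estradiol and 8.32, 8.42 and 8.39 with vehicle. The 9 arrays of the other groups lay between 8.16 and 8.61, and the 3 estradiol-treated receptor arrays lay more than 1 log2 above them. The difference was 1.47 ± 0.13 log2 (adjusted p = 0.00170, limma), and the other 2 detected probes of the gene gave 1.42 and 0.72 log2. Of the 19 measured genes of polyamine metabolism, a list drawn up with earlier results of these data known, SMOX alone was called. The rate-limiting ODC1 and the catabolic SAT1 had differences of -0.05 and -0.11 log2.

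B4GALT1 encodes a galactosyltransferase of the Golgi. It was at 7.52, 7.32 and 6.84 log2 in receptor cells with estradiol and 5.99, 5.94 and 5.74 with vehicle, against 5.80, 6.21 and 6.05 in control cells with estradiol and 6.31, 5.96 and 6.05 with vehicle. The estradiol-treated receptor arrays were the highest, and vehicle-treated receptor arrays averaged 0.21 log2 below vehicle-treated control arrays. The difference was 1.42 ± 0.18 log2 (adjusted p = 0.0174, limma). Of its 9 measured family members, a list drawn up with earlier results of these data known, B4GALT1 alone was called. The other 8 lay between -0.30 and 0.15 log2.

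PC, pyruvate carboxylase, makes oxaloacetate from pyruvate, and its difference was split over both cell lines. It was at 6.60, 6.34 and 6.10 log2 in receptor cells with estradiol and 6.28, 5.91 and 5.67 with vehicle, against 5.00, 5.29 and 5.14 in control cells with estradiol and 5.69, 5.74 and 5.80 with vehicle. Receptor arrays overlapped between treatments, while all 3 estradiol-treated control arrays lay below all 3 vehicle-treated ones. The receptor response was 0.39 log2 (adjusted p = 0.165) and the control response was -0.60 log2, with a 95% interval of -0.80 to -0.40 (adjusted p = 0.525, limma), so neither was called alone. The difference of 0.99 ± 0.13 log2 was called (adjusted p = 0.0174, limma), and the other detected probe of the gene gave 0.65 log2.

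KRT15 encodes a type I keratin of epithelial basal cells. It was at 7.76, 6.82 and 7.23 log2 in receptor cells with estradiol and 6.85, 5.98 and 6.15 with vehicle, against 6.24, 6.11 and 6.22 in control cells with estradiol and 6.22, 6.17 and 6.25 with vehicle. Receptor replicate 1 was high under both treatments, so that the receptor groups overlapped although each pair rose, by 0.91, 0.84 and 1.08 log2. The difference was 0.97 ± 0.12 log2 (adjusted p = 0.0129, limma). KRT19, a simple-epithelium keratin known as estrogen-responsive in breast cells, was detected on all 3 arrays of receptor cells with estradiol, 1 of 3 with vehicle and 0 of 6 control arrays. Its fitted difference of 1.40 log2 therefore rests on levels not above background, and it was not called (adjusted p = 0.0746). KRT18 and KRT8 had differences of -0.06 and -0.09 log2. With vehicle the 7 epithelial markers summed higher in receptor than in control cells, and with estradiol the ranges overlapped, as given above. The part of that in the KRT15 result was not tested.

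**Figure D2:**
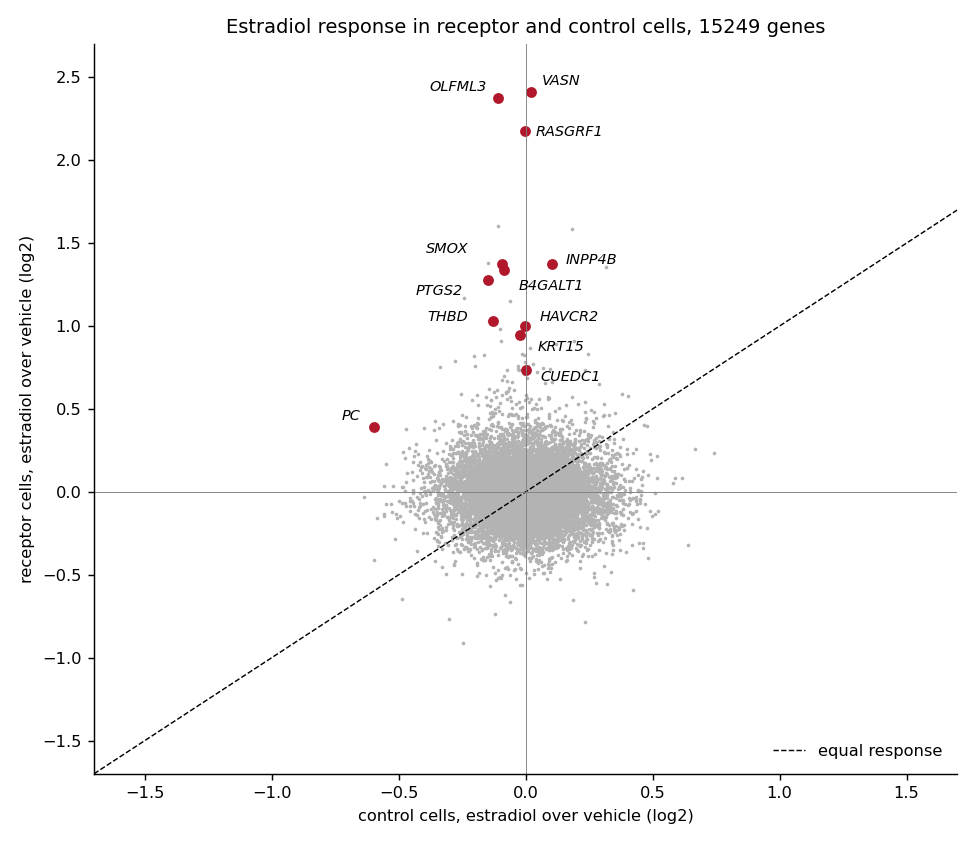
Estradiol over vehicle (log2) in receptor cells (vertical axis) against control cells (horizontal axis) for the 15249 genes tested, with the 12 genes called for the response difference named and a dashed line where both responses are equal. The axes run over unequal ranges; 11 of the 12 named genes lie near 0 on the horizontal axis and above 0.7 on the vertical axis, and PC lies at -0.60 and 0.39.

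Leaving out arrays separated the called genes by firmness. OLFML3, RASGRF1, SMOX, THBD and VASN were called in all 9 fits that left out a receptor pair or a control array, with adjusted p of at most 0.0492 in limma. KRT15 lost its call without receptor pair 1 or 3 (adjusted p up to 0.0586). B4GALT1 lost it in 4 of the 9, without receptor pair 1 or 2 or without replicate 3 of either control group (up to 0.0989). INPP4B lost it in 6, without receptor pair 2, replicate 1, 2 or 3 of control cells with estradiol, or replicate 2 or 3 of control cells with vehicle (up to 0.0890). PC lost it in 6, without receptor pair 1, 2 or 3, replicate 3 of control cells with estradiol, or replicate 2 or 3 of control cells with vehicle (up to 0.0965). PTGS2 lost it in 7, all but those without replicate 1 of control cells with estradiol or replicate 3 of control cells with vehicle (up to 0.142). HAVCR2 and CUEDC1 lost it in all 9, with adjusted p of up to 0.143 and 0.177. Without the pairing of receptor arrays the 5 calls were RASGRF1, SMOX, THBD, VASN and INPP4B. The sign was kept in each of these fits, and the CUEDC1 difference stayed between 0.70 and 0.77 log2.

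Just outside the threshold lay CDKL1, CST4 and DHRS3, each with an adjusted p of 0.0594, next to HAVCR2, PTGS2 and CUEDC1 just inside it. DHRS3, a retinal reductase that lowers retinoic acid supply, was at 7.93, 6.62 and 7.14 log2 in receptor cells with estradiol and 6.17, 5.40 and 5.30 with vehicle, against 6.36, 7.02 and 6.25 in control cells with estradiol and 6.57, 6.85 and 6.55 with vehicle. Its difference of 1.71 ± 0.27 log2 was the fourth highest among these 15 genes, with an SE as large as that of VASN. CST4, a secreted cystatin, was at 6.41, 6.18 and 5.76 log2 in receptor cells with estradiol and 4.89, 5.32 and 5.05 with vehicle, against 7.30, 7.36 and 7.40 in control cells with estradiol and 7.49, 7.47 and 7.54 with vehicle. All receptor arrays were below all control arrays, and the response difference was 1.18 log2 by this probe and 1.44 log2 by the other. CDKL1, a protein kinase, had a difference of 0.96 ± 0.15 log2.

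Of the 55 genes called for estradiol within receptor cells (53 higher, 0.348% of those tested, and 2 lower, 0.0131%), 44 were not called for the difference. In all 44 the difference had the sign of the receptor response. These genes were picked by that response, which is itself a term of the difference, so the shared sign is no independent evidence. The difference has a median SE of 0.154 log2 over the genes tested, against 0.109 log2 for either response alone. The 2 lower genes were the chemokine gene CCL23, with a receptor response of -0.62 log2 and a difference of -0.54 log2, and a placeholder locus.

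Several genes widely used as markers of estrogen action in breast cells could not be assessed, because PGR, GREB1 and TFF1, like ESR1, were detected on 0 arrays. Of the 24 measured genes on a list of estrogen-responsive genes, 0 were called for the difference, 6 had an unadjusted p under 0.05, all higher, and the median difference was 0.25 log2. This list and those that follow were drawn up with earlier results of these data known. Over all 15249 genes 0.0787% were called, 7.15% had an unadjusted p under 0.05 and the median was -0.000543 log2. A list with 0 called therefore does not stand apart from all genes. The 6 (25.0%) were KRT19, HSPB8, CCN5 (1.04 log2), RET, IGFBP4 (0.46 log2) and RARA, of which KRT19, HSPB8 and RET were not detected on any array of control cells with estradiol. CCND1 and MYC, which drive cell division and respond to estrogen in breast cells, had differences of 0.11 and -0.07 log2. Of 20 estrogen receptors and cofactors, 0 were called, and the median was 0.05 log2.

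The genes of endothelial function outside THBD and PTGS2 were not called, where 0.0787% of all genes tested were called. Of 24 measured genes of vascular tone and coagulation, those 2 were called, and the median difference was 0.10 log2. At an unadjusted p under 0.05, 4 were higher, THBD and PTGS2 among them, and 2 lower (25.0%, against 7.15% over all genes). The list was drawn up with earlier results of these data known, so this share is no independent evidence. NOS3, the endothelial nitric oxide synthase, was at 10.00, 9.51 and 10.01 log2 in receptor cells with estradiol and 9.88, 9.58 and 9.92 with vehicle, against 10.70, 10.72 and 10.73 in control cells with estradiol and 10.89, 11.12 and 10.63 with vehicle. Treatments overlapped in receptor cells, and the NOS3 difference was 0.21 ± 0.16 log2 (adjusted p = 0.867, limma). EDN1, the endothelin precursor, had 0.10 log2, and VWF, the von Willebrand factor, 0.44 ± 0.21 log2 (adjusted p = 0.714), with receptor replicate 1 more than 1 log2 above the other receptor arrays under both treatments. Of 25 endothelial identity genes 0 were called, and 3 were higher and 1 lower at that level (16.0%), with a median of 0.04 log2. The higher were ENG, a TGF-beta co-receptor, with 0.48 log2, the transcription factor SOX17 with 0.45 log2 and CD34 with 0.45 log2, the lower was the transcription factor FLI1 with -0.39 log2, and the junction gene PECAM1 had 0.15 log2. Of 19 genes of angiogenic and Notch signalling 0 were called, and 0 had an unadjusted p under 0.05.

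Inflammatory lists held no called gene, which does not set them apart, as 0.0787% of all genes tested were called. Of 27 NF-kB, adhesion and chemokine genes, 4 were higher and 1 lower at an unadjusted p under 0.05 (18.5%, against 7.15% over all genes), with a median of 0.02 log2. TNIP1, an inhibitor of NF-kB signalling, had 0.85 log2, SELP 0.50 log2 and the chemokine gene CCL2 -0.06 log2. SELP averaged 6.29 log2 in receptor cells with estradiol and 5.55 with vehicle, against 7.55 and 7.31 in control cells. The adhesion genes SELE, VCAM1 and ICAM1 were detected on only 3, 3 and 5 of 12 arrays, so their differences are not given. Of 31 interferon-stimulated genes 0 had an unadjusted p under 0.05, and the median was -0.05 log2.

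Matrix and signalling lists gave VASN, RASGRF1 and INPP4B, which were placed on them with earlier results known, and no other call. Over all genes 0.0787% were called. Counts at an unadjusted p under 0.05 are set against 3.86% higher and 3.29% lower over all genes, 7.15% in all. Of 26 TGF-beta and BMP genes 1 was called and 5 were higher at that level (19.2%). Of 35 genes of matrix, integrins and matrix proteases 0 were called, 9 were higher and 1 lower at that level (28.6%), and the median was 0.14 log2. Among them TIMP3, an inhibitor of matrix proteases, had 0.73 log2, the membrane protease MMP14 0.79 log2 and the collagenase MMP1 -0.76 log2. TIMP3 averaged 9.62 log2 in receptor cells with estradiol and 9.01 with vehicle, against 9.71 and 9.82 in control cells. Of 21 genes of Ras exchange and MAPK feedback 1 was called, and 3 were higher and 4 lower (33.3%), the feedback inhibitor SPRY1 having 0.76 log2. SPRY1 averaged 7.47 log2 in receptor cells with estradiol and 6.73 with vehicle, against 7.38 and 7.41 in control cells. Of 37 phosphoinositide and inositol phosphate enzymes 1 was called, and 5 were higher and 2 lower (18.9%), the kinase ITPKC having 1.02 log2. Of 17 cystatins and cathepsins 0 were called and 4 were higher (23.5%), CST1 having 1.53 log2. CST1 nevertheless averaged 10.32 log2 in receptor cells with estradiol and 8.95 with vehicle, against 13.11 and 13.26 in control cells.

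Growth and stress lists held no called gene. Over all genes tested 0.0787% were called, so the lack of calls does not set these lists apart. Of 30 mitosis genes 0 were called with a median of 0.01 log2, and MKI67 had 0.58 ± 0.15 log2 (adjusted p = 0.291), with a control response of -0.47 log2 and detection on 1 of 3 arrays of control cells with estradiol. Of 36 DNA replication genes 0 had an unadjusted p under 0.05, as had 0 of 24 p53 targets. Of 20 immediate early genes 2 were higher, of 23 cholesterol synthesis genes 1, and of 27 hypoxia and glycolysis genes 1 was higher and 1 lower, none called. The 27 genes of ATF4 and the unfolded protein response had a median of 0.20 log2, with 5 higher at an unadjusted p under 0.05 (18.5%, against 7.15% over all genes) and 0 called. Of the marker lists, 9 epithelial genes had 1 higher (KRT19), 10 mesenchymal genes 0, and 6 leukocyte genes 1 lower. The 18 reference genes had a median of 0.00 log2 and 0 at an unadjusted p under 0.05.

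**Figure D3:**
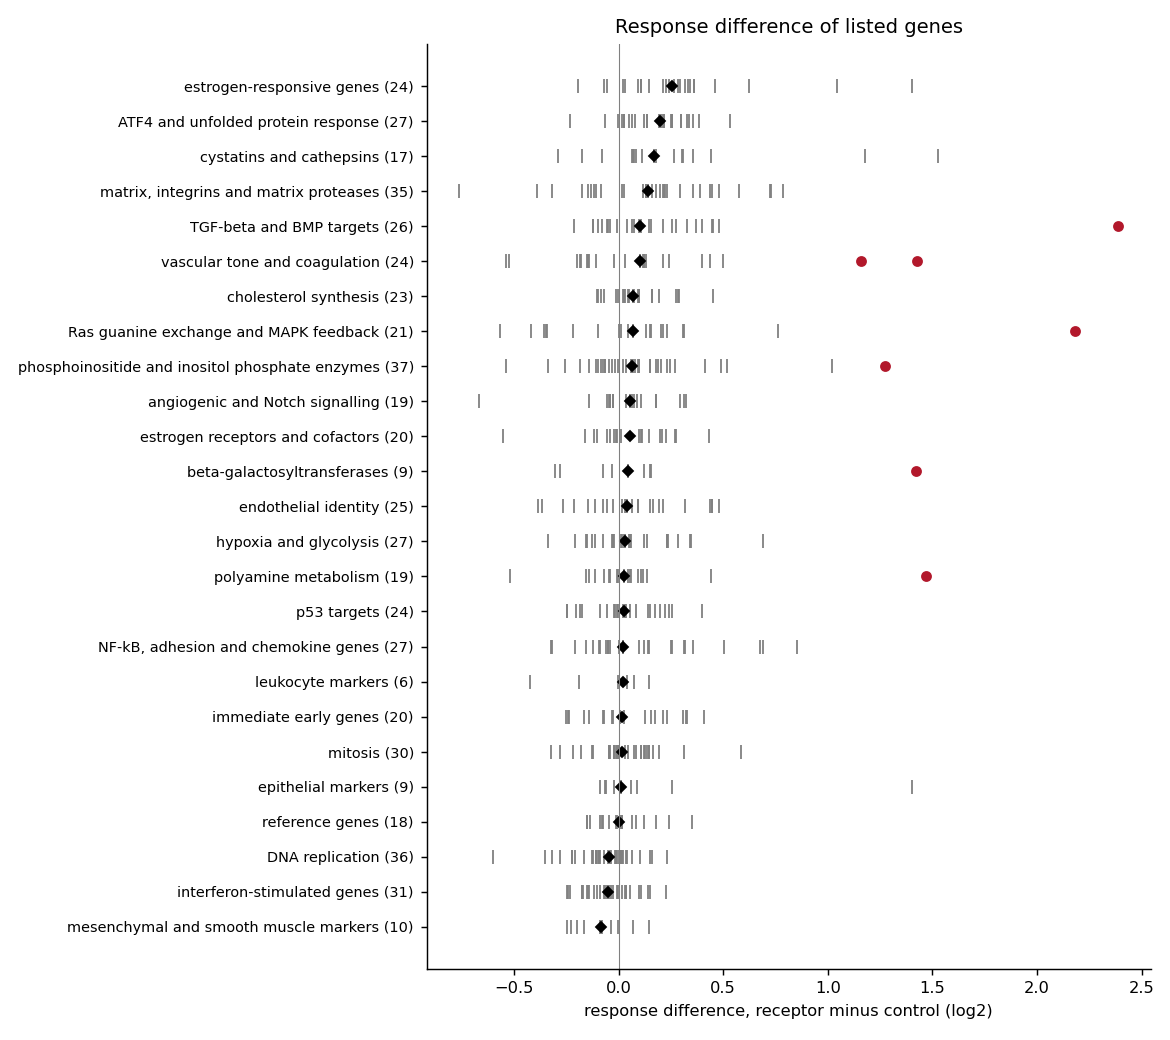
Response difference, receptor minus control (log2, horizontal axis), of the measured members of the 25 gene lists (rows, ordered by median). Grey bars are genes not called, red circles are called genes and black diamonds are list medians, which lie between -0.08 and 0.25 log2. OLFML3, KRT15, PC, HAVCR2 and CUEDC1 are on no list and are not shown. The other called genes, which were picked by this same difference, have the highest or one of the highest differences of their list.

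**Figure D4:**
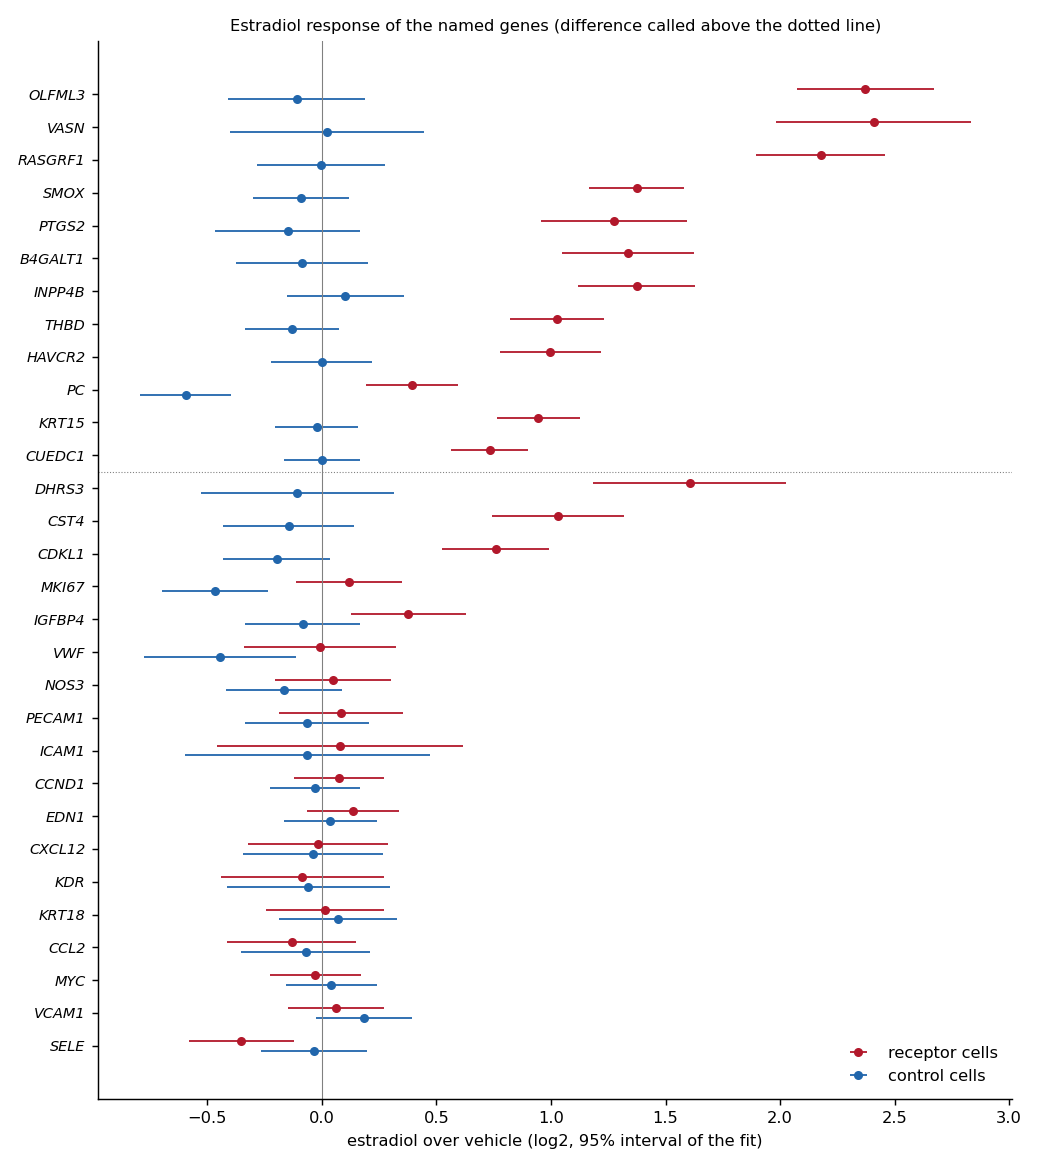
Estradiol over vehicle (log2, horizontal axis) of the named genes in receptor cells and in control cells, with 95% intervals of the fit as bars. Above the dotted line are the 12 genes called for the difference, whose control intervals hold 0 except that of PC, and below it the 3 genes just outside the threshold and the 15 other listed genes, none called.

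A wider group of 46 genes was called for the difference under each of the 4 settings that gave 56 to 64 calls, which were quantile normalisation with no background correction, a larger offset, the authors' normalized values, and a prior variance that follows intensity. This group was picked after those counts were seen. Of the 46, 44 were higher (0.289% of those tested) and 2 lower (0.0131%), both lower ones being placeholder loci. All 12 genes were among them, and the other 34 had adjusted p between 0.0594 and 0.289 in the main analysis. The receptor response was larger in size than the control response for 43 of the 46. In all 34 further genes the 3 receptor pairs had the same sign, which is no independent evidence, because the same arrays entered the selection.

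Further genes of that wider group were named after their values were seen. Among retinoid enzymes DHRS3 had 1.71 log2 and CYP26B1, which breaks down retinoic acid, 0.73 log2. The CYP26B1 difference was split over both cell lines, with a receptor response of 0.39 log2 and a control response of -0.34 log2, neither called. Enzymes of proteoglycan making and trimming were CHSY1, a chondroitin synthase, with 0.77 log2, PAPSS2, which makes the sulfate donor, with 0.53 log2, and the sulfatase SULF2 with 0.61 log2. The growth factor gene PDGFB had 0.67 log2, and IGFBP3, which binds insulin-like growth factors, 0.77 log2. Signalling genes were PAK1, a kinase downstream of Rac, with 0.76 log2, and the adaptor BCAR1 with 0.79 log2. PFKFB3, a regulator of glycolysis known in sprouting endothelium, had 0.69 log2, and PODXL, a surface sialomucin of endothelium, 0.76 log2. With estradiol, receptor cells averaged below control cells for CYP26B1 (8.66 against 9.47 log2) and PFKFB3 (9.93 against 10.04 log2). BCAR1 was level between them (10.09 against 10.08 log2), and the other genes named here averaged higher in receptor cells. None of the genes named here was called in the main analysis.

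**Figure D5:**
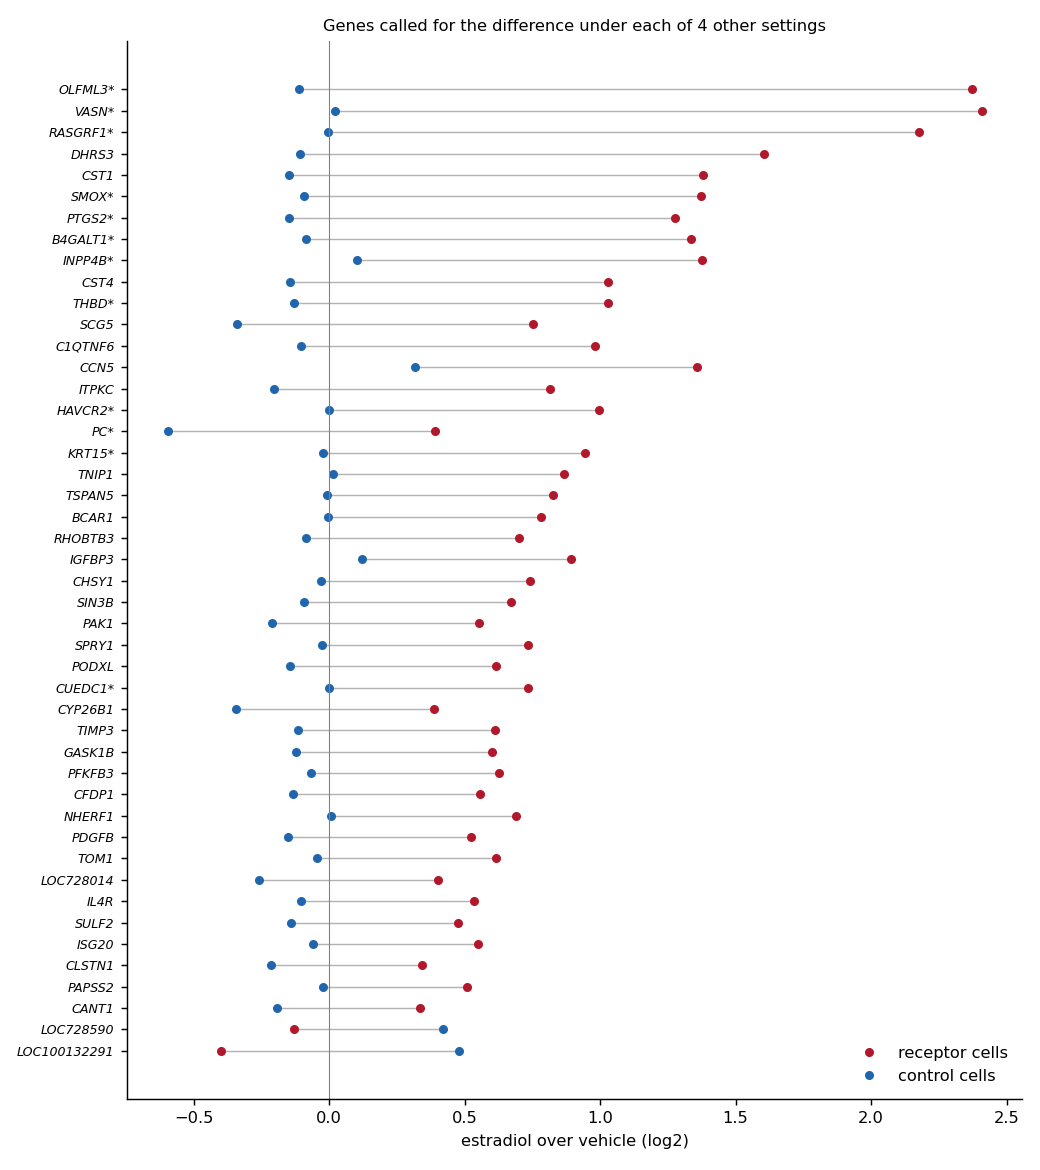
Estradiol over vehicle (log2, horizontal axis) in receptor cells and in control cells for the 46 genes called under each of the 4 other settings (rows, ordered by the response difference). Receptor points lie to the right of control points for 44 genes and to the left for 2, and most control points lie near 0.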

How the data were processed

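RNA of 12 cultures was hybridised to Illumina BeadChips. Per the file headers, the deposited non-normalized table holds a bead summary intensity and a detection p-value per probe and array. The authors' normalized table, made with lumi per the submitters' processing notes (version and settings not given in the sources used here), was an alternative, and its intensities were put on the log2 scale here. Of 47322 probes 1 was dropped because 4 arrays lacked its value. The neqc function of limma 3.58.1 (R 4.3.3) corrected the background from the detection p-values, quantile normalised, added an offset of 16 and took log2. Symbols were updated with RefSeq (27036 current, 4675 updated, 12341 kept, 3270 none). Probes with a detection p under 0.05 on at least 3 arrays (21476) were reduced to the probe of highest mean per gene, giving 15249 genes.

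A limma model with 1 mean per group and the replicate number as a block within receptor cells was fitted to all arrays. Tests were two-sided and adjusted by Benjamini-Hochberg over all genes. As a check of pairing, deviations of same-numbered arrays were correlated across genes: r was 0.76, 0.39 and 0.67 for the receptor pairs. Receptor arrays of unequal number had r between -0.63 and 0.01. For control pairs r was 0.08, 0.03 and 0.11, against -0.13 to 0.06 for unequal numbers, and no block was used there. The pairing had been found in an earlier analysis of these data, so this check is no independent evidence for the block. The number of arrays limits the precision. The fit was tested on simulated data with 50 genes at each size of added difference. It called 18% of those at 0.5 log2, 70% at 1 log2, 90% at 1.5 log2 and 100% at 2 log2, with 4 false calls. A gene not called may therefore still differ. Named genes are the called genes (15 highest and lowest, and 3 per list), 21 fixed genes and 3 on either side of the threshold. The members and the 25 lists were chosen with earlier results of these data known. Other list members named in the text were chosen after their values were seen. The summed level of the leukocyte markers is not reported here. Bounds on folds use the lowest signal at which detection starts. Figures were drawn with matplotlib 3.10.9.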

Additional observations from a re-analysis of the deposited data

Results flagged for a closer look

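The response to estradiol differed between receptor and control cells, by a test of the difference itself, for 12 genes (limma, adjusted over 15249 genes). In log2 units the difference was 2.48 for OLFML3, 2.39 for VASN, 2.18 for RASGRF1, 1.47 for SMOX, 1.43 for PTGS2, 1.42 for B4GALT1, 1.27 for INPP4B, 1.16 for THBD, 1.00 for HAVCR2, 0.99 for PC, 0.97 for KRT15 and 0.73 for CUEDC1. Each was higher with estradiol in 3 of 3 receptor pairs, which describes the same arrays that gave the call. Groups of 3 arrays are too small for a check on single arrays that stand apart.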

How the results depend on the processing

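The 12 calls of the response difference fell to 5 with no replicate block, and were 9 with a replicate block within both cell lines and 11 with a random replicate block. They were 61 with quantile normalisation and no background correction, 56 with an offset of 50, 64 with the authors' normalized intensities, 59 with a trended prior variance and 35 with only genes detected on all 12 arrays, where 11152 genes were tested and OLFML3 and RASGRF1 were not among them. Leaving out a receptor pair or a control array gave 6 to 11 calls. The count was 7 without receptor pair 2, 6 without replicate 3 of control cells with estradiol and 7 without replicate 2 of control cells with vehicle. No filter gave 10, array weights 12 and every probe on its own 13 probes. The 55 calls within receptor cells became 11 with no replicate block, 35 with a replicate block within both cell lines, 141 with the authors' intensities and 18 to 48 on leaving out arrays (18, 34 and 23 without receptor pairs 1, 2 and 3). The 0 calls within control cells became 1, a lower gene, with the authors' intensities. The 12 named genes kept their sign in each alternative that tested them. RASGRF1, SMOX, THBD and VASN kept their call in all of these, and OLFML3 in all but the fit with no replicate block (adjusted p = 0.0516). The cause of these changes was not tested. The chip as a block was not run, because the files used here name no chip. OLFML3, RASGRF1 and KRT19 were not detected on control arrays, so the background limits what their control response can show.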

Other observations

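Probes of a gene were not always alike. JMY, a gene named after its values were seen, had a difference of 0.68 log2 by its brighter probe, not called, and 1.30 log2 by its dimmer probe, called when every probe was tested on its own. CST1 and CST4, both secreted cystatins, had differences of 1.53 and 1.18 log2, neither called. Both were lower in receptor cells than in control cells under either treatment.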
